A study of Arabidopsis thaliana with 8 samples.

Results

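The chloroplast genome encodes part of the photosynthetic machinery and of the plastid's own translation apparatus, and the genes described here are those of its protein-coding genes, other than the 4 RNA polymerase genes rpoA, rpoB, rpoC1 and rpoC2, that had a probe set annotated to that gene alone. There were 65 such genes, each with 1 probe set, among 22746 tested probe sets. By symbol they were 5 psa genes, 15 psb genes, 6 pet genes, 6 atp genes, 10 ndh genes, 8 rps genes, 7 rpl genes, 2 ycf genes (ycf3 and ycf4) and 6 others (accD, ccsA, cemA, clpP, matK and rbcL). The RefSeq table of assembly TAIR10.1 holds 78 protein-coding plastid symbols. A further 8 plastid probe sets that match several genes (rps12 on 2 of them, rpl2, rpl23, ycf2, ndhB, rps7 and ycf1) were kept apart.

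RNA came from Arabidopsis thaliana seedlings of the Col ecotype that were 5 days old, grown in the light on vertical plates, and each of 8 samples was hybridised to a single-colour Affymetrix array. The groups were wild type (2 arrays), mutants of AHA1 (2 arrays of allele aha1-6 and 1 of aha1-7) and mutants of AHA2 (2 arrays of allele aha2-4 and 1 of aha2-5). Both genes encode proton pumps of the plasma membrane, which use ATP to move protons out of the cell. The sources used here do not say what kind of mutation each allele carries, and AHA1 and AHA2 had no named probe set, so the genotypes are those of the labels. A string in the sample descriptions divides the arrays into a first set of 3 (1 per group: wild type, aha1-6 and aha2-4) and a second of 5 (1 array of each genotype). The labels do not say whether arrays of a genotype were separate cultures, so p-values rest on the spread among these samples alone, and that spread may be technical.

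Chloroplast genes are descendants of a cyanobacterial genome and are mostly transcribed in groups of neighbours from shared promoters, by a plastid-encoded polymerase whose core is made from the rpo genes and by nuclear-encoded phage-type polymerases. The transcripts are then cut, spliced and edited by nuclear-encoded proteins, and many products assemble with subunits imported from the cytosol into photosystem I (psa), photosystem II (psb), the cytochrome b6f complex (pet), the ATP synthase (atp) and the NDH complex of cyclic electron flow (ndh). Most plastid transcripts carry no long poly(A) tail, and the commercial in vitro transcription kit named in the labels primes on such tails. The intensity of a probe set was therefore read mainly between arrays. Levels of different genes were compared only to split probe sets by brightness, to name the brightest gene of a prefix, to call a level low or high and in a correlation with mean level. In whole seedlings, fewer cells of a type and less RNA per cell cannot be told apart.

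Values are log2(intensity + 1) after quantile normalization unless said otherwise. They are listed as wild type first set and second set, then aha1-6 first set, aha1-6 second set and aha1-7, then aha2-4 first set, aha2-4 second set and aha2-5. The median of each array over all its probe sets lay between 358.1 and 410.2 signal units. In the same deposited units, the median over the 65 chloroplast genes was 2809 and 1219 on the wild type arrays, 2296, 1068 and 1823 on the aha1 arrays, and 1892, 767.2 and 984.8 on the aha2 arrays. Within each set, every aha2 array had a lower median over these genes than every aha1 and wild type array, and the first-set array of each genotype with both sets had the higher one. The array of aha1-7 stood apart from the others over all probe sets, and results that rest on it are given with and without it where that array changed a call or moved a count.

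**Figure D1:**
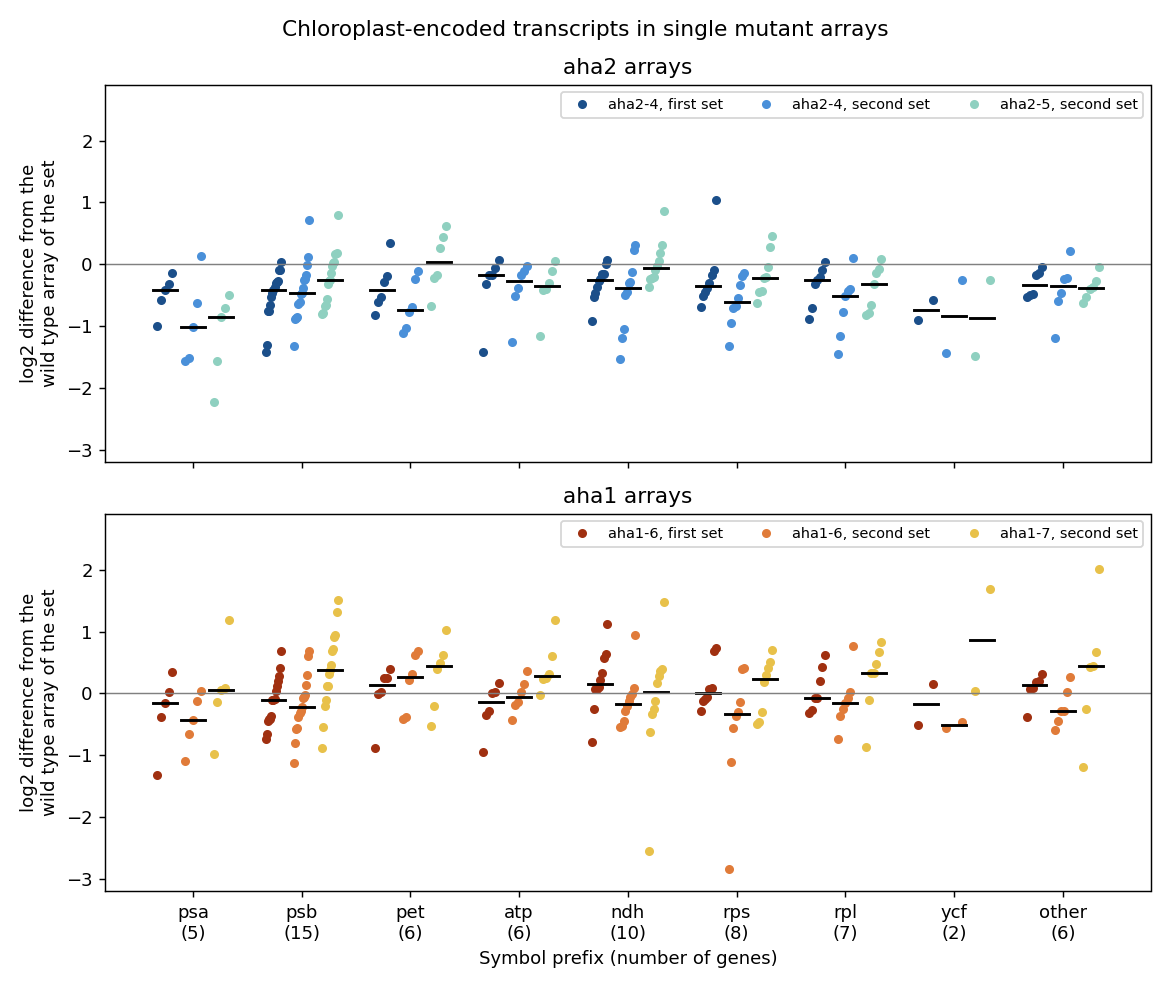
Difference of each chloroplast gene on each mutant array from its set's wild type array (y axis, log2), arranged by symbol prefix (x axis), with the 3 aha2 arrays in the upper panel and the 3 aha1 arrays in the lower one. Points are genes and black bars are medians per prefix and array. The medians over all 65 genes were -0.32, -0.48 and -0.25 on the aha2 arrays and 0.03, -0.21 and 0.32 on the aha1 arrays.

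In aha2 seedlings 60 of the 65 chloroplast genes had a lower fitted level than in wild type, with a median difference of -0.39 on the log2 scale, against 51.7% negative and a median of -0.01 over all tested probe sets. The largest negative differences were those of psaA, psbT, ycf3, atpI and rpl33. The 5 genes with a positive difference were rps14, psbJ, ndhF, petN and ndhC. No gene passed the threshold of 0.05 on the adjusted p (limma, 0 of 65), against 0% of all probe sets, and the smallest adjusted p among the 65 was 0.946. At an unadjusted p under 0.05, 7 genes were lower (psaB, psaI, ycf3, psbB, psbT, atpI and rpl33) and 0 higher, against 1.66% and 2.38% of all probe sets. That count of 7 was 2 without the first-set wild type array, 2 without the second-set one, and 12 without aha1-7.

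Array by array, 58, 58 and 49 of the 65 genes were below the wild type array of their set on aha2-4 first set, aha2-4 second set and aha2-5, where all probe sets gave 50%, 51.2% and 50.3%. On all 3 aha2 arrays 43 genes were below, against 19.2% of all probe sets, and 0 were above, against 18.6%. For 14 genes every aha2 array lay below both wild type arrays, against 10.2% of all probe sets, and for 0 every aha2 array lay above both, against 10.7%. These 14, named after their values were seen, were psaA, psaB, psaJ, psbA, psbF, psbH, psbM, petA, petB, ndhD, ndhI, ndhK, rpl33 and accD. Other genes, such as psaI and psbB, were lower in aha2 within both sets while the groups overlapped across sets.

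Photosystem I, which reduces ferredoxin at the end of the light-driven electron chain, had the lowest median of the complexes in aha2. All 5 psa genes were lower in the fit (median -0.70), and 4 were lower on every aha2 array. PsaA and PsaB form the reaction centre heterodimer that binds the primary electron donor. The psaA level was 10.45 and 9.59 in wild type, 9.13, 8.93 and 10.78 in aha1, and 9.44, 8.03 and 7.35 in aha2. All 3 aha2 arrays were below both wild type arrays, while, relative to wild type in the same set, aha1-6 lay below and aha1-7 above. The difference of psaA between aha2 and wild type was -1.64 (SE 0.77, limma adjusted p = 0.9998), the largest in size among the 65 genes, with an SE that only those of ndhF, rps14 and cemA exceeded.

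The psaB level was 14.43 and 14.38 in wild type, 14.28, 14.42 and 14.44 in aha1, and 14.01, 13.36 and 13.67 in aha2. Wild type and aha1 arrays overlapped, and all aha2 arrays lay below all of them. The difference of psaB between aha2 and wild type was -0.70 (SE 0.23, limma adjusted p = 0.9998). PsaI is a small membrane subunit at the periphery of the complex. Its level was 11.49 and 10.01 in wild type, 11.51, 9.88 and 9.86 in aha1, and 10.91, 9.38 and 9.16 in aha2, so it was lower in aha2 within each set while the sets themselves were farther apart. The difference of psaI was -0.66 (SE 0.17, limma adjusted p = 0.946). The remaining psa genes were psaJ, another small subunit, at -0.73 (SE 0.47), and psaC, which carries the terminal iron-sulphur clusters, at -0.43 (SE 0.54).

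Ycf3 and Ycf4 are assembly factors of photosystem I, and ycf3 lies next to psaA in the gene order. Both were lower in aha2 (median -0.83). The ycf3 level was 10.28 and 9.58 in wild type, 10.43, 9.11 and 9.62 in aha1, and 9.70, 8.14 and 8.09 in aha2. Within each set the aha2 arrays were the lowest, although the first-set aha2 array lay above the second-set values of wild type and aha1. The difference of ycf3 between aha2 and wild type was -1.09 (SE 0.28, limma adjusted p = 0.946), and that of ycf4 was -0.58 (SE 0.66, limma adjusted p = 0.9998).

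**Figure D2:**
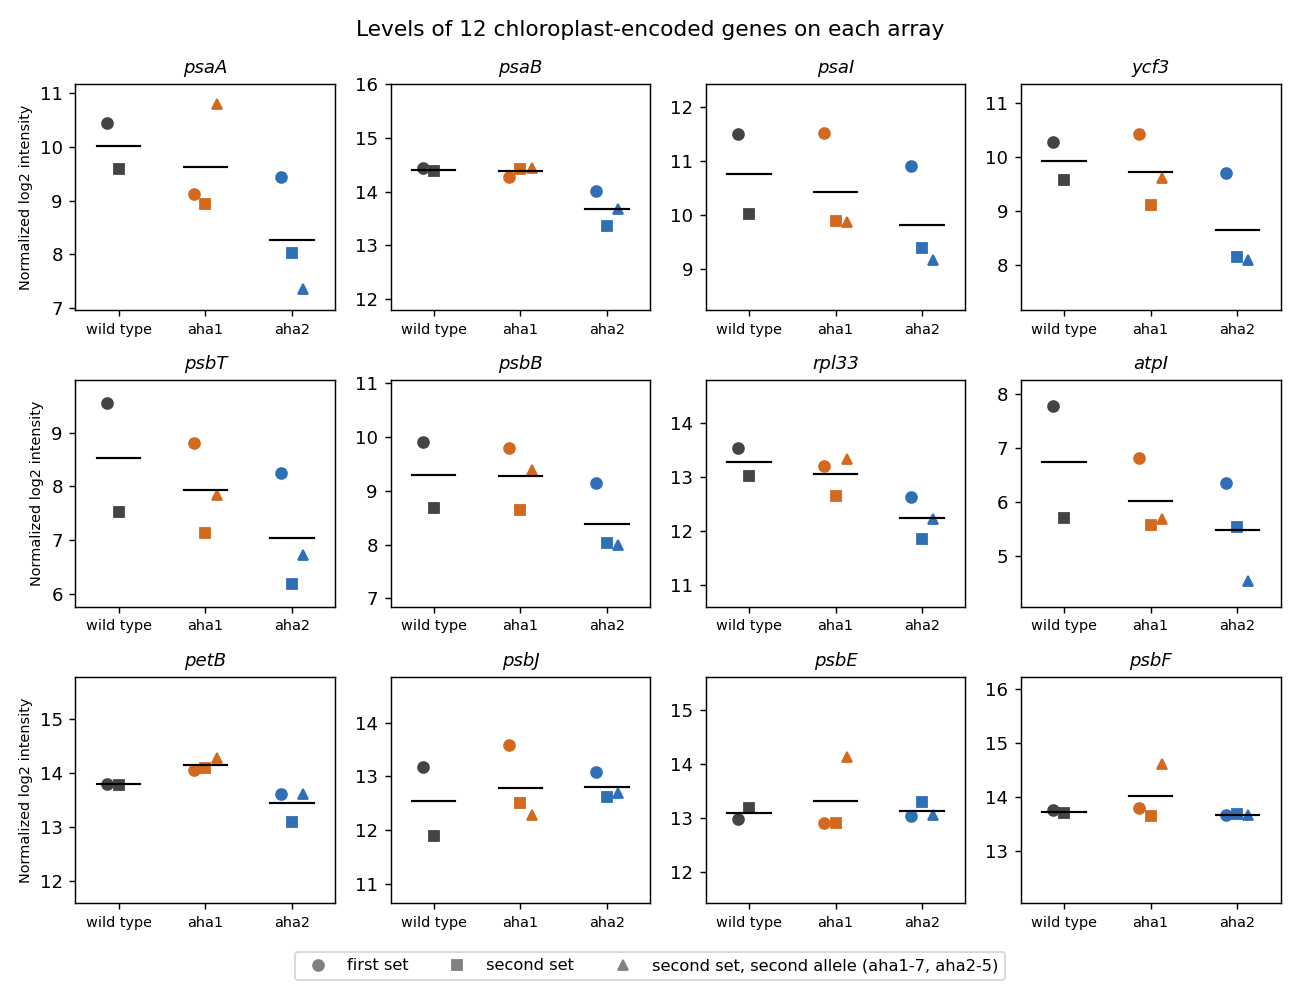
Normalized log2 level (y axis) of 12 chloroplast genes on each of the 8 arrays (x axis, by group), with array sets and second alleles marked; horizontal bars are group means. For psaB, rpl33 and petB all 3 aha2 arrays lie below both wild type arrays, psaI, psbT, psbB and atpI are lower in aha2 within each set, and psbE and psbF stand apart only on aha1-7.

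Photosystem II, which splits water, contributed the 15 psb genes, of which 14 were lower in aha2 (median -0.34). PsbB is the inner antenna protein CP47, and PsbT and PsbH are small subunits near it; the genes lie side by side. The psbT level was 9.54 and 7.52 in wild type, 8.80, 7.14 and 7.84 in aha1, and 8.24, 6.20 and 6.72 in aha2. It was below the wild type array of its set on all aha2 arrays, but the first-set aha2 array lay above the second-set wild type array. The difference of psbT was -1.20 (SE 0.32, limma adjusted p = 0.964).

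The psbB level was 9.90 and 8.67 in wild type, 9.79, 8.64 and 9.39 in aha1, and 9.14, 8.02 and 8.0 in aha2. Here aha1-6 lay close to wild type in both sets, and aha2 was lower within both. The difference of psbB was -0.73 (SE 0.27, limma adjusted p = 0.9998). For psbH it was -0.70 (SE 0.39), and for psbM, a small subunit at the dimer interface, it was -0.90 (SE 0.57).

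The psbE, psbF, psbL and psbJ genes lie together and encode the alpha and beta subunits of cytochrome b559 and a pair of small subunits. Their differences between aha2 and wild type were -0.02 for psbE (SE 0.39), -0.07 for psbF (SE 0.31), -0.11 for psbL (SE 0.31) and 0.42 for psbJ (SE 0.26). The psbF level was 13.76 and 13.70 in wild type, 13.79, 13.65 and 14.60 in aha1, and 13.66, 13.69 and 13.67 in aha2, so 7 of the 8 arrays lay close together, with aha2 just under wild type, and aha1-7 lay above them. The psbJ level was 13.18 and 11.90 in wild type, 13.59, 12.50 and 12.28 in aha1, and 13.09, 12.62 and 12.69 in aha2. Of the aha2 arrays only those of the second set were above wild type for psbJ, and its limma adjusted p was 0.9998. The reaction centre gene psbA, which encodes the D1 protein, differed by -0.34 (SE 0.32), as did psbD for the D2 protein (-0.34, SE 0.45). The other psb genes, psbC (antenna protein CP43), psbI, psbK, psbN (an assembly protein) and psbZ, ran from -0.69 to -0.19.

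The cytochrome b6f complex passes electrons between the photosystems, and 5 of its 6 pet genes were lower in aha2 (median -0.37). PetB is cytochrome b6. Its level was 13.80 and 13.78 in wild type, 14.06, 14.10 and 14.27 in aha1, and 13.61, 13.09 and 13.61 in aha2. The 3 groups did not overlap: aha2 was lowest, wild type between and aha1 highest, with aha2 at -0.35 (SE 0.23) and aha1 at 0.36 (SE 0.23) from wild type (limma adjusted p = 0.9998 and 0.937). The gene for cytochrome f, petA, was at -0.39 (SE 0.32), petD, for subunit IV, at -0.50 (SE 0.48), and the small subunit genes petG, petL and petN at -0.50 (SE 0.47), -0.33 (SE 0.32) and 0.02 (SE 0.58). The sign of petN is not settled: it was -0.11 on the deposited scale and -0.09 without the set term.

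All 6 atp genes, for subunits of the chloroplast ATP synthase, were lower in aha2 (median -0.33). AtpI is the membrane subunit through which protons enter the rotor. The atpI level was 7.77 and 5.70 in wild type, 6.81, 5.56 and 5.68 in aha1, and 6.35, 5.53 and 4.54 in aha2. These are low intensities, the first-set wild type array stood above all others, and the aha2-4 array of the second set differed little from wild type. The difference of atpI was -1.01 (SE 0.36, limma adjusted p = 0.9998), and that in aha1 was -0.47. The catalytic beta subunit gene atpB, at -0.28 (SE 0.24), and atpE for the epsilon subunit, at -0.13 (SE 0.17), differed least in size, together with atpA at -0.21 (SE 0.40) for the alpha subunit. AtpF and AtpH, a stalk subunit and the rotor ring subunit, had -0.37 (SE 0.23) and -0.44 (SE 0.41).

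The NDH genes had the median nearest to 0 of the prefixes, at -0.21, with 8 of 10 lower in aha2. The ndhD level was 9.73 and 9.32 in wild type, 10.07, 8.78 and 8.69 in aha1, and 9.26, 7.77 and 8.94 in aha2. All aha2 arrays were below both wild type arrays, with the aha2-4 array of the second set far lower than the others. The difference of ndhD was -0.71 (SE 0.40, limma adjusted p = 0.9998). The differences of ndhE, ndhK, ndhG, ndhJ, ndhH, ndhA and ndhI, other subunits of the complex, ran from -0.48 to -0.16. Those of ndhC and ndhF were 0.01 (SE 0.22) and 0.11 (SE 1.22), and ndhF varied between 1.71 on aha1-7 and 6.60 on the first-set aha1-6 array.

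Of the ribosomal protein genes, 7 of 8 rps genes (small subunit, median -0.43) and 7 of 7 rpl genes (large subunit, median -0.42) were lower in aha2. The rpl33 level was 13.53 and 13.01 in wild type, 13.20, 12.64 and 13.34 in aha1, and 12.63, 11.86 and 12.22 in aha2. All aha2 arrays were below all wild type and aha1 arrays. The difference of rpl33 was -0.96 (SE 0.28, limma adjusted p = 0.9998), and its neighbours psaJ and rps18 had -0.73 and -0.43. Next in size were rpl14 at -0.75 (SE 0.33), rps15 at -0.54 (SE 0.44), rpl20 at -0.52 (SE 0.36) and rps19 at -0.52 (SE 0.27), while rpl22 was at -0.07 (SE 0.33) and rpl36 at -0.09 (SE 0.28). The positive value of rps14, 0.45 (SE 1.07), rests on low levels that ran from 3.23 to 6.77, and it was -0.21 without the first-set wild type array. The remaining rps genes, rps2, rps3, rps4, rps16 and rps18, ran from -0.44 to -0.18, rpl16 was at -0.37 and rpl32 at -0.42.

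All 6 genes outside these families were also lower in aha2 (median -0.38). They were matK, the plastid intron maturase, at -0.56 (SE 0.25), accD, a subunit of acetyl-CoA carboxylase for fatty acid synthesis, at -0.49 (SE 0.44), rbcL, the large subunit of Rubisco, at -0.39 (SE 0.26), cemA, an envelope membrane protein, at -0.36 (SE 0.78), ccsA, which acts in haem attachment to cytochromes, at -0.24 (SE 0.45), and clpP, a protease subunit, at -0.12 (SE 0.21). The rbcL level was 12.20 and 11.62 in wild type, 12.26, 11.34 and 12.08 in aha1, and 11.67, 11.41 and 11.23 in aha2. It was lower in aha2 within each set by less than the wild type arrays differed between sets, and its limma adjusted p was 0.9998.

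**Figure D3:**
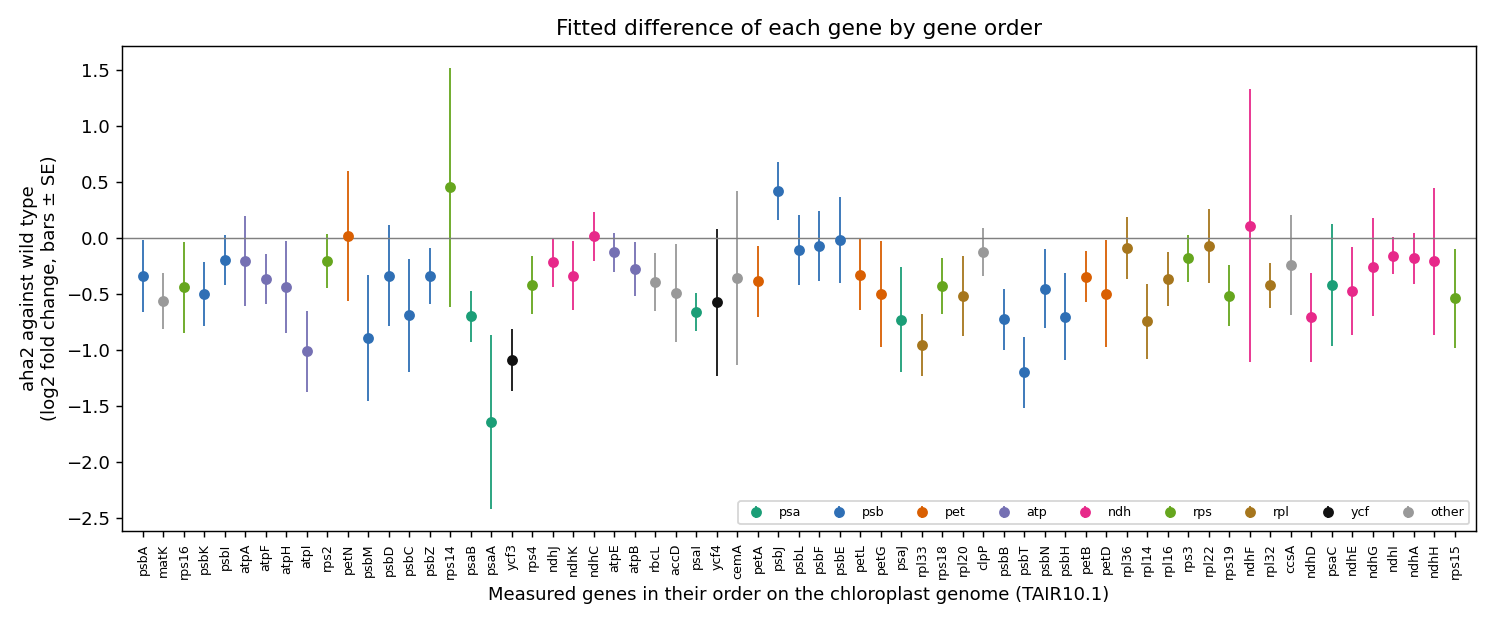
Fitted difference between aha2 and wild type (y axis, log2, with bars of 1 SE) for the 65 chloroplast genes in their order along the plastid genome of assembly TAIR10.1 (x axis, rank), coloured by symbol prefix. Neighbours from psbB to petB lie between -1.20 and -0.35, and the neighbours from psbJ to psbE lie between -0.11 and 0.42.

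Because plastid genes are transcribed with their neighbours, the aha2 differences were also read along the gene order, in groups of neighbours that were chosen with the values known. The group of psbB, psbT, psbH, petB and petD ran from -1.20 to -0.35 (median -0.70), psaJ, rpl33 and rps18 from -0.96 to -0.43, and atpI, atpH, atpF and atpA from -1.01 to -0.21. The neighbours psbD, psbC and psbZ lay between -0.69 and -0.34. By contrast psbE, psbF, psbL and psbJ ran from -0.11 to 0.42 (median -0.05), and ndhC, ndhK and ndhJ from -0.34 to 0.01. Neighbours were not always alike: psaA and psaB at -1.64 and -0.70 lay beside rps14 at 0.45, and in the ribosomal protein group rpl14 at -0.75 lay beside rpl36 at -0.09. Over the 65 genes, the aha2 difference had a Spearman correlation of -0.08 with gene length and of 0.21 with mean level, as a description over genes that share all 8 arrays.

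The allele pair of AHA2 was compared next, in a fit with the 5 genotypes and 2 residual degrees of freedom, where aha2-5 is 1 array assumed to vary like the rest. In aha2-4, 61 genes were lower than in wild type (median -0.43), against 50.9% of all probe sets. At an unadjusted p under 0.05, 15 genes were lower and 0 higher in aha2-4, against 2.89% and 3.42% of all probe sets. In aha2-5, 49 genes were lower (median -0.17), against 50% of all probe sets, and at that p 9 were lower and 0 higher, against 3.72% and 3.2%. In both alleles the photosystem I genes and their assembly factors had medians well below 0: psa -0.72 and -0.82, ycf -0.79 and -0.80. The pet, ndh and rps genes had medians of -0.43, -0.33 and -0.44 in aha2-4 and of 0.03, 0.02 and -0.02 in aha2-5.

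By gene, psaA was at -1.28 (SE 0.35) in aha2-4 and -2.25 (SE 0.45) in aha2-5, ycf3 at -1.01 (SE 0.27) and -1.24 (SE 0.35), psbB at -0.70 (SE 0.14) and -0.71 (SE 0.18), and rpl33 at -1.03 (SE 0.15) and -0.74 (SE 0.20). None of them passed over all probe sets, and the limma adjusted p of these 8 differences lay between 0.573 and 0.772. In a fit restricted to the 11373 brighter probe sets, psaA and rpl33 fell in aha2-4 (limma adjusted p = 0.0461 and 0.0118, 2 of 48 genes measured there, against 0.132% of those probe sets). In the same fit psaA fell in aha2-5 (limma adjusted p = 0.0168, 1 of 48, against 0.0264%). With aha1-7 left out as well, psaA, psbB, ycf3 and rpl33 fell in aha2 as a group, by 1.57, 0.70, 1.07 and 0.95 on the log2 scale (limma adjusted p = 0.0373, 0.0411, 0.0243 and 0.0146, against 0.114% of those probe sets).

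Set against each other directly, aha2-5 minus aha2-4 had a median of 0.26 with 22 negative genes. None of the 65 passed (limma), and 3 were higher (ndhE at 1.06, petG at 1.14 and rpl20 at 0.64) and 1 lower (psaC at -1.48) at an unadjusted p under 0.05, against 2.6% and 3.41% of all probe sets, so no difference between the AHA2 alleles was resolved for these genes. Without the set term the median difference between the alleles was -0.14, with 45 negative genes; aha2-5 has no first-set array.

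In aha1 seedlings the chloroplast genes showed no common direction: 29 were lower and 36 higher than in wild type, with a median of 0.03, where 49.6% and 50.4% of all probe sets were. The single arrays differed: 29, 45 and 21 genes were below wild type of the set on aha1-6 first set, aha1-6 second set and aha1-7. All probe sets gave 50.1%, 49.9% and 46.8% there. The median was -0.10 without aha1-7 and -0.07 without the set term, with 43 genes lower in the first of these fits. The comparison uses the same wild type arrays as that of aha2. No gene passed (limma, against 0% of all probe sets), and the smallest adjusted p was 0.937. At an unadjusted p under 0.05, 1 gene was lower and 0 higher, against 2.2% and 2.81% of all probe sets. That gene was rpl32, a large subunit ribosomal protein. Its level was 12.86 and 11.11 in wild type, 12.59, 10.38 and 10.24 in aha1, and 12.53, 10.69 and 10.45 in aha2, lower in both mutants within each set. The difference of rpl32 was -0.58 (SE 0.20) in aha1 and -0.42 (SE 0.20) in aha2.

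The groups did not overlap for 1 lower gene, psbK, and 1 higher gene, petB, against 8.82% and 9.99% of all probe sets. PsbK is a small photosystem II subunit, with 13.17 and 12.64 in wild type and 12.51, 12.07 and 12.53 in aha1, a difference of -0.45 (SE 0.28). Among the next in order of p, psbJ was at 0.41 (SE 0.26) and atpF at 0.31 (SE 0.23) in aha1, and neither these nor psbK or petB passed (limma adjusted p = 0.937 for each). On every aha1 array 4 genes were below and 6 above the wild type array of their set, against 16.6% and 18.5% of all probe sets.

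The alleles of AHA1 were compared in the same fit. Against wild type the median was -0.10 in aha1-6, with 43 genes lower and 22 higher, and 0.37 in aha1-7, with 21 lower and 44 higher. Of all probe sets 50.3% were lower and 49.7% higher in aha1-6, and 46.5% lower and 53.5% higher in aha1-7. Without the set term the aha1-7 median against wild type was -0.10, with 36 lower, and that of aha1-7 against aha1-6 was -0.073; aha1-7 has no first-set array. At an unadjusted p under 0.05, aha1-6 had 2 lower genes (psbH and psbT) and 1 higher (rpl20), against 3.57% and 3.57% of all probe sets. In aha1-7 the counts were 4 lower (psbA, ccsA, ndhF and rpl32) and 12 higher, against 12.5% and 9.18%. Between the alleles, 18 genes were higher and 5 lower in aha1-7 at that p, against 9.42% and 12.2% of all probe sets. Of the 48 genes among the 11373 brighter probe sets, 20 were higher and 3 lower in aha1-7 than in aha1-6 at the adjusted threshold (limma), where 14.4% and 18.5% of those probe sets were. Examples were psaA at 2.16 (limma adjusted p = 0.00116) and psbB at 0.76 (limma adjusted p = 0.0113), and psbN was lower at -0.79 (limma adjusted p = 0.0194).

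The psbE level, for 1 of the cytochrome b559 subunits, was 14.14 on aha1-7 and between 12.90 and 13.30 on the other 7 arrays, and psbF had the same pattern. Over the 65 genes aha1-7 had a median 0.67 above the mean of the other second-set arrays, with 47 genes higher. That mean includes the aha2 arrays of the set, on which these genes were low. Relative to the second-set wild type array alone, the median was 0.32, with 44 genes higher. On aha1-7 the 3′ minus 5′ difference of the GAPDH control was -0.54, against 0.42 on the second-set wild type array and 0.10 on the second-set aha1-6 array. Its part in the allele difference was not tested. The aha1-7 deviation from the mean of the other second-set arrays had a Spearman correlation of 0.11 with gene length over the 65 genes. Its medians were 0.52 over the 22 shortest and 0.70 over the 22 longest.

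Between the mutants, 61 of 65 genes were higher in aha1 than in aha2, with a median of 0.41, against 51.7% of all probe sets. None passed (limma, against 0% of all probe sets), and the smallest adjusted p was 0.349, for ycf3 at 1.08 (SE 0.24). At an unadjusted p under 0.05, 11 genes were higher and 0 lower, against 5.49% and 5.14% of all probe sets: psaB, psaI, ycf3, psbB, psbT, petB, atpF, rpl14, rpl20, rpl33 and matK. Among them psbB was at 0.89 (SE 0.24), petB at 0.71 (SE 0.20), psaB at 0.70 (SE 0.20) and psaI at 0.60 (SE 0.15). Every aha1 array lay above every aha2 array for 4 genes (psaB, petB, atpE and rpl33), against 8.56% of all probe sets.

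The comparison of the mutants depended on the arrays paired. The median over the 65 genes was 0.39 between the first-set arrays of aha1-6 and aha2-4 and 0.38 between those of the second set. It was 0.06 between aha1-6 and aha2-5, and 0.85 and 0.61 between aha1-7 and the second-set arrays of aha2-4 and aha2-5. With aha1-7 left out and over the 11373 brighter probe sets, psaI, psbB, psbN and ycf3 were higher in aha1-6 than in aha2 at the adjusted threshold, by 0.61, 0.63, 0.89 and 0.91 (limma adjusted p = 0.0423, 0.0306, 0.034 and 0.0254, against 1.42% of those probe sets). PsbN, a photosystem II assembly protein, is encoded on the strand opposite to its neighbours psbT and psbH.

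**Figure D4:**
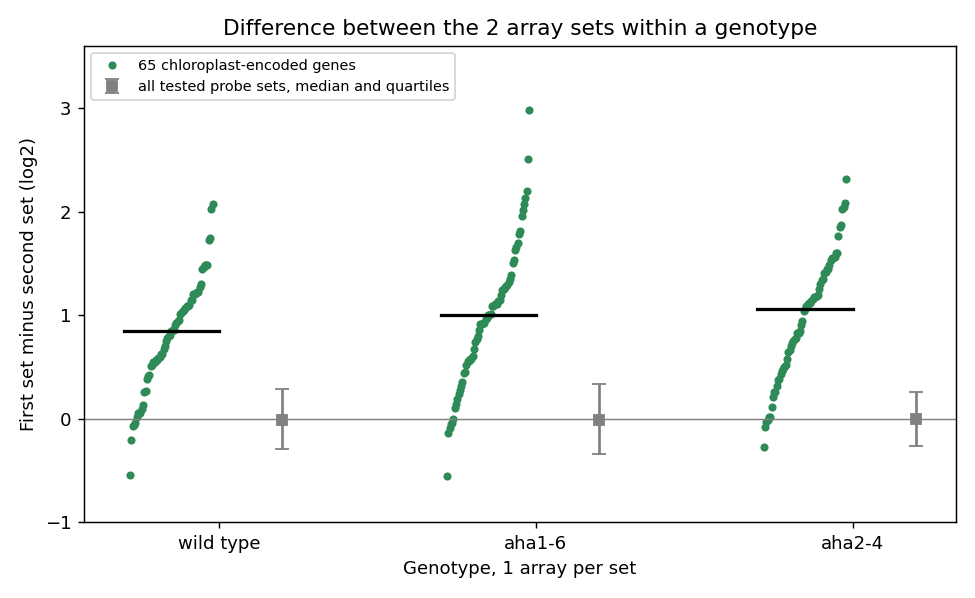
Difference between the first-set and the second-set array of the same genotype (y axis, log2) for the 65 chloroplast genes (points, black bar at the median) beside the median and quartiles of all tested probe sets (grey), for wild type, aha1-6 and aha2-4 (x axis). The medians of the chloroplast genes were 0.85, 1.0 and 1.06.

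The largest contrast for these genes lay between the array sets, and its size was seen before it was tested. First minus second set was positive for 63 of 65 genes, with a median of 0.70 in the fit, against 49.1% of all probe sets, and 2 genes were negative, psbE at -0.33 and psbF at -0.11. No gene passed over all probe sets (limma, against 0% of them, smallest adjusted p 0.105), and at an unadjusted p under 0.05, 34 were higher and 0 lower, against 4.32% and 4.84%. The largest differences were those of psaC at 2.32 (SE 0.44) and rpl32 at 2.02. With aha1-7 left out and over the 11373 brighter probe sets, 35 of 48 genes were higher in the first set at the adjusted threshold, against 2.67% of those probe sets.

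Within genotypes the first-set array was the higher one for 60 genes in wild type, 59 in aha1-6 and 61 in aha2-4, and 52 genes were higher in all 3, against 18.1% of all probe sets. The set difference was larger in size than the aha2 difference for 50 of the 65 genes. Since each set holds wild type, aha1-6 and aha2-4 arrays, the aha2 difference could be read within each: the aha2-4 medians of -0.32 (first set) and -0.48 (second set) have the same sign.

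Genes of the other compartments were read from the same fits. The nuclear-encoded subunits of the same complexes, 9 of 46 listed genes with a probe set (PSAE-1, PSAN, PSBW, PSBY, PSB27, ATPC1, ATPC2, NdhL and NdhN), had a median of -0.00 in aha2 and -0.14 in aha1 against wild type, with 0 passing (limma). By allele the median was 0.01 in aha1-6 and -0.24 in aha1-7, where 8 of the 9 were lower while most chloroplast genes were higher. Their set differences had medians of 0.13, 0.04 and 0.12 in wild type, aha1-6 and aha2-4, where those of the chloroplast genes were 0.85, 1.0 and 1.06. Of the 9, PSAE-1, PSAN, PSBW, PSBY, PSB27 and ATPC1 had high levels, from 13.90 to 15.25. Chloroplast genes with high levels included atpE, ndhI, psaB and atpB, with fitted set differences of 0.12, 0.14, 0.14 and 0.42. The less bright ATPC2, NdhL and NdhN had 0.09, 0.21 and 0.16. The part of the level in this contrast was not tested. A list of shoot markers, 12 of 64 with a probe set and including these 9, had a median of -0.00 in aha2, and its medians on the 3 aha2 arrays ran from -0.08 to -0.02 relative to wild type within the set. The root markers with a probe set, 4 of 14 (PYK10, NAI2, EXPA7 and EXPA18), had a fitted median of 0.20 in aha2 and went both ways. Relative to wild type within the set, their medians were 0.14, -0.12 and -0.08 on aha2-4 first set, aha2-4 second set and aha2-5. PYK10 and NAI2, genes of the root ER bodies, were at -0.13 and -0.02 in aha2, and the root hair expansin genes EXPA7 and EXPA18 at 0.45 and 0.42. Between aha1 and aha2, EXPA7 was at -0.94 and EXPA18 at -0.81 (limma, unadjusted p = 0.0228 and 0.0623), opposite in sign to most chloroplast genes. PYK10 and NAI2, at 0.16 and 0.19 in that comparison, had the same sign as most chloroplast genes. The EXPA7 level was 8.71 and 8.15 in wild type, 8.35, 8.05 and 7.20 in aha1, and 8.83, 9.07 and 8.52 in aha2, where each array exceeded wild type of its set. The summed normalized intensity of the measured root markers ran from 41230 to 42290 in wild type, 37270 to 50760 in aha1 and 35830 to 42980 in aha2, and that of the shoot markers from 287900 to 301800, 271300 to 299200 and 281000 to 297500. None of the measured markers was at 0, and their part in the results was not tested.

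The 4 plastid polymerase genes had medians of -0.63 in aha2, 0.03 in aha1 and 0.63 between aha1 and aha2. In aha2, 3 of them were lower, down to -1.095 for rpoC1, and rpoA was higher at 0.24. The value of rpoB, -0.46, rests on low levels that ran from 3.37 to 6.41. The 8 plastid probe sets that match several genes were all negative in aha2, with a median of -0.28, and had medians of 0.24 in aha1 and 0.49 between the mutants. Of 11 mitochondrial genes, 7 were lower and 4 higher in aha2, with a median of -0.21, and their set differences had medians of -0.10, 0.29 and 0.30. No difference between these lists and the 65 genes was tested. None of 24 listed nuclear factors of plastid transcription, such as sigma factors, had a named probe set, so their levels were not analysed here.

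RNA quality controls differed between arrays. The 3′ minus 5′ difference of the GAPDH control was 0.65 and 0.42 in wild type, 0.79, 0.10 and -0.54 in aha1, and 0.30, -0.70 and 0.35 in aha2. It was lowest on the second-set aha2-4 array, where the chloroplast genes also had their lowest median, and next lowest on aha1-7, where they were high for the set. The other controls gave other orders. The additional GAPDH control pair (r2) was lowest on the first-set aha2-4 array, at -0.23, and next lowest on the second-set one, at -0.07. It was 0.04 on aha1-7, 0.14 and 0.38 in wild type, and 0.21 on the aha2 array of the other allele. The actin r2 pair was 1.66 and 1.75 on the aha2-4 arrays and 1.66 on aha1-7. It was 2.115 and 2.03 in wild type, 2.42 on the aha2 array of the other allele and highest, at 2.5, on the second-set aha1-6 array. Both r2 pairs were thus lower on the aha2-4 arrays and on aha1-7 than on either wild type array. Actin ran from 3.32 on aha1-7 to 4.29 on the second-set aha2-4 array. Ubiquitin ran from 1.12 on the first-set wild type array to 2.06 on the second-set aha1-6 array. Their part in the results was not tested.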

How the data were processed

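Total RNA (RNeasy extraction, biotin labelling by in vitro transcription, per the labels' protocols) was measured on 8 single-colour arrays. The authors deposited a linear intensity for each probe set, computed in Expression Console 1.1 (Affymetrix), per the submitters' processing notes. How the software summarised the probes was not given in the sources used here. Log2(value + 1) was quantile normalized over 22810 probe sets, 64 controls were dropped and 22746 were tested in limma 3.58.1 (R 4.3.3; lmFit, eBayes; group and set as terms, 4 residual degrees of freedom). P-values were adjusted after Benjamini and Hochberg over every tested probe set, with a threshold of 0.05. A second fit took the 5 genotypes and set, with 2 residual degrees of freedom. The precision is limited by the number of arrays.

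Gene names came from the platform annotation and RefSeq (TAIR10.1): 13513 had 1 gene, 503 several and 8730 none. Members are the single-gene probe sets on the plastid genome without the rpo genes. The members and all lists were chosen with earlier results of these data known, and no p-value was computed over a list. Named genes are, per prefix, the 3 with the lowest p in aha2, the brightest and the largest of opposite sign, plus the 5 with the lowest p in each other comparison and any that passed in any fit; others were named after their values were seen. Alternatives were the deposited scale, scaling on nuclear probe sets, a pseudocount of 16, the 11373 brighter probe sets (of which 48 are members and 17 members are not), no set term, set as a random block, each array left out, and aha1-7 left out over the brighter probe sets.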

Additional observations from a re-analysis of the deposited data

Results flagged for a closer look

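The genes petB and atpF were the 2 of 65 for which every aha2 array lay below and every aha1 array above the wild type array of its set, a share near the 2.51% of all probe sets with that pattern. The difference between aha1 and aha2 was 0.71 for petB and 0.68 for atpF on the log2 scale. For petB the arrays differed from wild type by -0.19, -0.69 and -0.18 in aha2 and by 0.25, 0.32 and 0.49 in aha1. For atpF the values were -0.18, -0.51 and -0.43, and 0.17, 0.15 and 0.60. Neither difference between the mutants passed (limma adjusted p = 0.394 and 0.397), and that the mutants lie on opposite sides of wild type was not tested.

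Over the brighter probe sets 23 of 48 chloroplast genes differed between aha1-7 and aha1-6, with aha1-7 being 1 array. Of all brighter probe sets 14.4% were higher and 18.5% lower in aha1-7 at the same threshold. Passing in this comparison was therefore not limited to chloroplast genes, but the directions differed. The chloroplast genes that passed were mostly higher in aha1-7, whereas more of all brighter probe sets were lower than higher. By sign alone, 44 of the 65 chloroplast genes were higher in aha1-7 than in aha1-6 and 21 lower, against 53.3% and 46.7% of all probe sets.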

How the results depend on the processing

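For aha2 against wild type, the median of -0.39 was -0.55 without the set term, -0.53 with set as a random block and between -0.43 and -0.26 when 1 array at a time was left out, with -0.26 without the second-set aha2-4 array. The count at an unadjusted p under 0.05 was 2 without the set term, 2 with the random block, between 2 and 12 with 1 array left out, and 25 over the brighter probe sets without aha1-7, where 4 genes passed. For aha1 against wild type that count was 0, 0, between 0 and 3, and 10 in the same order. For aha1 against aha2 it was 3, 3 and between 7 and 17, and 4 genes passed over the brighter probe sets without aha1-7. The counts over the brighter probe sets, such as 25 and 10, are of 48 genes. At an unadjusted p under 0.05 without aha1-7, 4.67% of those probe sets were lower and 5.08% higher in aha2 than in wild type. In aha1 the shares were 5.46% and 5.15%. The genes lower in aha1 than in aha2 numbered 7 with scaling on nuclear probe sets, 2 over the brighter probe sets, between 3 and 12 with 1 array left out, and 9 over the brighter ones without aha1-7.

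Among the alleles, the brighter probe sets gave 2 passing genes for aha2-4, 1 for aha2-5, 17 for aha1-7 against wild type and 23 for aha1-7 against aha1-6, where negative genes numbered 12 and 13 for the last pair of comparisons. Many of the brighter probe sets as a whole also passed in the comparisons of aha1-7, which is 1 array. Against wild type 19.4% of them were lower and 14.9% higher in aha1-7, and against aha1-6 18.5% and 14.4%. Passing in the comparisons of aha1-7 was therefore not limited to chloroplast genes, but the chloroplast genes that passed were mostly higher. By sign alone, 44 of the 65 genes were higher in aha1-7 than in wild type and 21 lower, against 53.5% and 46.5% of all probe sets. Without the set term, the medians were -0.57 for aha2-5 and -0.10 for aha1-7 against wild type (36 negative), -0.14 for aha2-5 against aha2-4 (45 negative) and -0.073 for aha1-7 against aha1-6 (35 negative). Between the sets, 3 genes passed over the brighter probe sets (psaI, rpl32 and rps18) and 35 without aha1-7 as well, and the median was 0.68 to 0.83 with 1 array left out. A pseudocount of 16 and the addition of the 8 probe sets of several genes kept the direction of every group median (-0.36 and -0.37 in aha2), and each gene had 1 probe set, so a mean over probe sets was the same.

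Some single genes changed sign in aha2 against wild type. The value of petN was -0.11 on the deposited scale, -0.057 with nuclear scaling, -0.089 without the set term, -0.078 with the random block and between -0.35 and 0.48 with 1 array left out. That of ndhF was -0.12, -0.10 and between -0.31 and 1.14 for the last 3 of these settings. With nuclear scaling psbF was 0.0145 and rpl22 0.034, and with 1 array left out they ran from -0.20 to 0.035 and from -0.21 to 0.033. The value of rps14 ran from -0.21 to 1.24 with 1 array left out. The causes were not tested. Replicate numbers were given in accession order and only name the samples, so the array set, which every group spans, was the block in the fit.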
